A study of Mus musculus with 70 samples.

Results

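Toll-like receptors sense microbial products and molecules released by dying cells. The genes described here are 10 mouse members of that system, found by symbol among the 55487 named genes of each count table: the cell-surface receptors Tlr2 and Tlr4, the endosomal receptors Tlr3, Tlr7, Tlr9 and Tlr13, the co-receptors Cd14 and Ly96, and the adaptors Myd88 and Ticam1. The 70 RNA-seq libraries came from B16F10 tumors that were dissociated and sorted by flow cytometry into leukocytes (CD45+) and tumor and supporting cells (CD45-). B16F10 is a mouse melanoma line, injected with Matrigel into each flank of C57BL/6 mice of either sex, which were 6 to 8 weeks old at purchase. One flank received sham ablation (control mice) or partial histotripsy, a focused ultrasound that breaks tissue mechanically, 9 to 10 days after inoculation. "Histotripsy-treated" tumors are the ablated ones, and "histotripsy-abscopal" tumors are the untreated ones on the opposite flank of such mice. Tumors were taken 3 or 7 days after ablation. The CD45+ fraction had 4 control, 6 histotripsy-treated and 7 histotripsy-abscopal libraries on day 3, and 10, 3 and 4 on day 7. The CD45- fraction had 4, 7 and 7 libraries on day 3, and 11, 3 and 4 on day 7. Groups were not randomized, the sex of the mouse is not known for a library, and a treated and an abscopal library may come from the same mouse, which the labels do not state. In the sample list a CD45+ and a CD45- library of the same group often stand side by side, in places under unlike numbers. Libraries of both fractions may thus share a tumor. Because no label ties a library to a mouse, p-values measure only the spread between these libraries.

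Tlr2, paired with Tlr1 or Tlr6, recognizes bacterial lipoproteins, and Tlr4 recognizes bacterial lipopolysaccharide, which Cd14 passes to a complex of Tlr4 and Ly96 (also called MD-2). Tlr3 binds double-stranded RNA, Tlr7 single-stranded RNA, Tlr9 unmethylated CpG DNA and Tlr13 bacterial ribosomal RNA. Myd88 carries the signal of every receptor listed except Tlr3 towards NF-kB and inflammatory cytokines, and Ticam1 (TRIF) serves Tlr3 and internalized Tlr4 and leads to interferon-beta. Macrophages, neutrophils and dendritic cells are the best known carriers of these receptors.

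The promoters of the receptors that rose in treated tumors (Tlr2 and Tlr13) and of both adaptors are shown, since the former were nearly absent from CD45- cells and the latter were counted in both fractions. RefSeq's promoter table for GRCm38.p6 held 6 of the 10 members. Each run below is the stretch of a 300-base window around the RefSeq start that lies before that start and outside every exon of the GENCODE annotation. Both strands of each 300-base window were searched, and capitals mark a match within the run to GAGGAAG (PU.1), TTGCNNAA (C/EBP) or TGANTCA (AP-1). The matches printed do not overlap each other. The Myd88 run lies inside the span of the gene in GENCODE, which has a start further upstream.
Tlr2 (chr3:83841768-83841858, minus strand): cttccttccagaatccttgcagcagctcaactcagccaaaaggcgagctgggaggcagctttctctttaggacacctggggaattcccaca
Tlr13 (chrX:106143025-106143203, plus strand): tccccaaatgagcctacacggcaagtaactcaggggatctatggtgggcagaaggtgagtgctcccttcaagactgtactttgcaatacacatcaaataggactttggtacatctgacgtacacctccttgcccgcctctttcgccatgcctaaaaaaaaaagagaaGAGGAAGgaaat
Myd88 (chr9:119340042-119340268, minus strand): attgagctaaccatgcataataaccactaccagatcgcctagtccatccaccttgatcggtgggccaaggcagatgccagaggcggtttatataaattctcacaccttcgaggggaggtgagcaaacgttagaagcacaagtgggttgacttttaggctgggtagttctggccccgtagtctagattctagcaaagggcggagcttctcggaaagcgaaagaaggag
Ticam1 (chr17:56276787-56277017, minus strand): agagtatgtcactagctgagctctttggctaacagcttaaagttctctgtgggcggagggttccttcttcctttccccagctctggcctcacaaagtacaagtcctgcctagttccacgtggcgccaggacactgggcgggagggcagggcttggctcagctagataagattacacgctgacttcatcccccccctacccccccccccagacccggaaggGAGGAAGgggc
The Tlr13 and Ticam1 runs each hold a PU.1 match, letters found in 13.6% of the 32851 RefSeq promoter windows. The windows of Tlr2 and Myd88 held no match to any of the 3 motifs, which says only that these letters are not in them. The Tlr13 window also holds 1 C/EBP match, which begins at the RefSeq start and so lies past the printed run. The C/EBP letters are found in 10.8% and the AP-1 letters in 7.81% of windows. A match is a stretch of letters and not a measured site.

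The genes themselves lie apart in the genome. In GENCODE coordinates on GRCm38, Tlr2 is at chr3:83836272-83841767 (minus strand), Tlr4 at chr4:66827584-66930284 (plus), Tlr3 at chr8:45395665-45411080 (minus) and Tlr9 at chr9:106222598-106226883 (plus). Tlr7 at chrX:167304929-167330558 (minus) and Tlr13 at chrX:106143204-106160493 (plus) share the X chromosome. Cd14 is on chromosome 18, and Ly96 is at chr1:16688051-16709611 (plus), Myd88 at chr9:119335934-119341411 (minus) and Ticam1 at chr17:56269319-56276786 (minus). Exons of Myd88 overlap those of Acaa1a on the opposite strand, starting 3742 bases from the 3′ end of Myd88, and exons of Tlr3 overlap those of Gm45542, which had 0 counts in every library. The strand setting of the counting is not given in the sources used here.

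Library depth was 887798 to 3820705 counts. Ptprc, which encodes CD45, was at 651 to 1252 CPM (a count scaled to its library's total) in CD45+ and at 0 to 1.48 CPM in CD45- libraries, while the summed level of 7 melanoma markers was 23402 to 36892 CPM in CD45- libraries. On day 3, 3 CD45+ libraries stood apart. Histotripsy-treated replicate 3 had the highest neutrophil marker sum (26799 CPM) and erythroid marker sum (6665 CPM) of its group, and histotripsy-abscopal replicates 1 and 4 had melanoma marker sums of 1169 and 2278 CPM. The members and the counts called for treated CD45+ cells of day 3 are given with and without them.

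Tlr2, Tlr7, Tlr13 and Cd14 were counted almost wholly in CD45+ cells, whereas Tlr3, Tlr4, Ly96, Myd88 and Ticam1 were counted in both fractions. The comparison of the fractions shows where in the tumor the receptors were transcribed. Among 9 members tested in edgeR, 7 were higher in CD45+ cells on day 3 and 9 on day 7, beside 44.0% and 43.2% of all 13387 genes tested, and 0 were lower. Of these, Tlr2, Tlr7, Tlr13 and Cd14 passed the filter on low counts only through CD45+ cells, so the outcome of their test was largely set by that filter. QuantSeq reads 1 tag near the poly(A) end of a transcript, so CPM stands for molecules and is not divided by length. In bulk samples, fewer cells of a type and less RNA per cell cannot be told apart.

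Cd14, the lipopolysaccharide co-receptor, had the highest mean of the members over the CD45+ libraries, at 290 ± 183 CPM (SD, n = 34), which did not exceed that of Tlr2 beyond the spread, and in histotripsy-abscopal tumors Tlr2 had the higher mean. Cd14 had 2 counts over all 18 CD45- libraries on day 3 and 2 over all 18 on day 7. Its pooled level was 6612 times as high in CD45+ cells on day 3 (95% counting interval 1830 to 54605) and 6317 times as high on day 7 (1748 to 52169). Tlr7, the receptor for single-stranded RNA, was at 19.3 ± 4.69 CPM (SD, n = 34) in CD45+ cells, with 10.9 CPM in the lowest library, and had 1 count in all CD45- libraries on each day. The ratio of its pooled levels was 790 on day 3 (interval 141 to 31261) and 912 on day 7 (163 to 36076). These intervals cover counting error only.

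Tlr2 was at 232 ± 87.1 CPM (SD, n = 34) in CD45+ cells and 1.28 ± 0.946 CPM (SD, n = 36) in CD45- cells. The highest CD45- library held 8 Tlr2 counts and the lowest CD45+ library was at 131 CPM, so the fractions did not overlap. Its pooled level was 235 times as high in CD45+ cells on day 3 (interval 177 to 320) and 152 times as high on day 7 (117 to 201). Tlr13, the receptor for bacterial ribosomal RNA, was at 64.4 ± 40.4 CPM (SD, n = 34) against 0.216 ± 0.330 (SD, n = 36). The ratio of its pooled levels was 421 on day 3 (interval 204 to 1048) and 240 on day 7 (interval 134 to 481). Tlr9 was the scarcest member in CD45+ cells, at 0 to 5 counts per library, and passed no filter. Its pooled level was 0.749 CPM on day 3 (interval 0.469 to 1.13) in CD45+ cells and 0.249 CPM (0.124 to 0.446) in CD45- cells, and 1.35 (0.964 to 1.84) against 0.138 (0.0507 to 0.301) on day 7.

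Both adaptors were present in both fractions and higher in CD45+ cells. Myd88 was at 78.8 ± 14.5 CPM (SD, n = 34) in CD45+ and 8.22 ± 2.74 CPM (SD, n = 36) in CD45- cells, with no overlap. Its log2 fold change was 3.57 (SE 0.13, adjusted p = 2.16e-36) on day 3 and 3.69 (SE 0.15, adjusted p = 3.39e-34) on day 7. Ticam1 was at 30.7 ± 6.35 CPM (SD, n = 34) and 15.3 ± 3.41 CPM (SD, n = 36), with a log2 fold change of 1.30 (SE 0.10, adjusted p = 1.57e-19) on day 3 and 1.35 (SE 0.11, adjusted p = 1.19e-17) on day 7. The order of the adaptors turned between the fractions: Myd88 exceeded Ticam1 in 17 of 17 CD45+ libraries on each day, and in 1 of 18 CD45- libraries on day 3 and 0 of 18 on day 7.

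Tlr3, Tlr4 and Ly96 were the receptor-side members counted in CD45- cells. Their CD45- levels were 19.5 ± 4.95, 14.99 ± 4.05 and 14.1 ± 3.44 CPM (SD, n = 36), every CD45- library held at least 11 counts of each, and with Ticam1 they held the first 4 places in the order of levels, where no neighbor differed from the next beyond the spread. The summed level of 6 fibroblast markers ranged from 13.7 to 13264 CPM over these libraries. In the CD45- library with the lowest fibroblast sum, day 3 control replicate 4, Tlr3 was at 17.9, Tlr4 at 12.9 and Ly96 at 8.74 CPM. In the one with the highest sum, day 3 histotripsy replicate 3, they were at 17.2, 7.19 and 12.4 CPM. Cd14, which acts with Tlr4 and Ly96, was thus near 0 in cells in which both partners were counted.

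Of these, Tlr4 was higher in CD45+ cells, with a log2 fold change of 0.80 (SE 0.15, adjusted p = 2.97e-06) on day 3 and 0.71 (SE 0.17, adjusted p = 8.53e-05) on day 7. Within single treatment groups in edgeR, its day 3 difference was 1.60 (adjusted p = 1.15e-08) in treated tumors. It was smaller and not called in control (0.48, adjusted p = 0.179) and histotripsy-abscopal tumors (0.33, adjusted p = 0.203). Its day 7 difference was 1.04 (adjusted p = 5.76e-07) in control tumors, and was not called in treated (0.63, adjusted p = 0.104) and abscopal tumors (0.47, adjusted p = 0.167). Tlr3 was higher in CD45+ cells on day 7 (log2 fold change 0.45, SE 0.16, adjusted p = 0.00991). Without CD45+ day 7 abscopal replicate 1, at 44.7 CPM the highest Tlr3 library, this was 0.29 (adjusted p = 0.104), and with library totals for scaling it was 0.20 (adjusted p = 0.257). In control tumors alone it was -0.06 (adjusted p = 0.784). On day 3 Tlr3 was at -0.33 (SE 0.16, adjusted p = 0.0553), a difference called with library totals (-0.62, adjusted p = 0.000578), with no filter on low counts (-0.40, adjusted p = 0.0162) and in 10 of the 22 fits with a library left out. Ly96 was at 0.14 (SE 0.16, adjusted p = 0.430) on day 3, with the sign turned to -0.17 by library totals, and was higher on day 7 (0.47, SE 0.17, adjusted p = 0.0107), a call lost with library totals (0.22, adjusted p = 0.203) and without CD45- day 7 histotripsy replicate 1 (0.35, adjusted p = 0.0604). The median of all genes moved from 0.06 to -0.23 on the log2 scale with library totals on day 3.

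**Figure D1:**
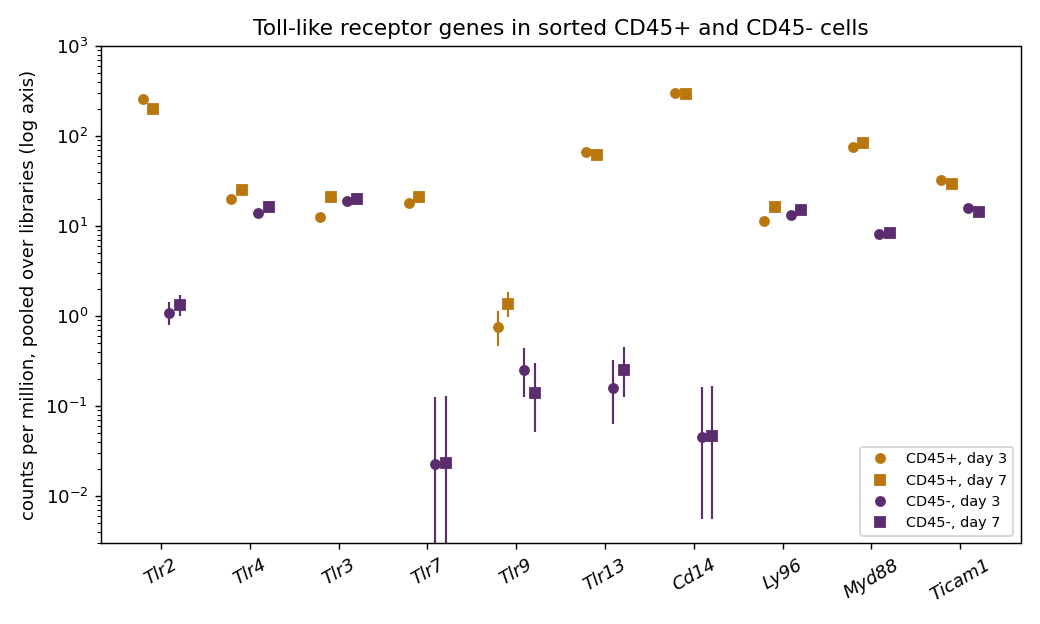
Pooled level of each member in CD45+ and CD45- cells on days 3 and 7, in CPM on a log axis; vertical lines are 95% Poisson intervals, which cover counting error only, and lines that reach the lower edge run further down. Tlr2, Tlr7, Tlr13 and Cd14 sit at 1.31 CPM or less in CD45- cells, whereas Tlr3, Tlr4, Ly96 and Ticam1 sit between 11.3 and 32.5 CPM in both fractions.

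To see whether ablation was followed by a change of these receptors in the leukocytes of the treated tumor, CD45+ cells were compared between treatments. On day 3, 2 of 9 tested members were higher in histotripsy-treated than in control tumors, beside 6.22% of all 10264 genes tested (638 higher and 163 lower), and 0 were lower. These were Tlr2 and Tlr13. Against histotripsy-abscopal tumors, 3 of 9 were higher, beside 4.87% of genes (500 higher and 58 lower). These were Tlr2, Tlr4 and Tlr13. With library totals for scaling the splits of all genes were 413 higher and 650 lower against control and 345 and 89 against abscopal tumors, and the median of all genes against control moved from -0.01 to -0.22. In both comparisons 7 of 9 members had a positive difference, and their median was 0.27 against control and 0.40 against abscopal tumors on the log2 scale, beside -0.01 and -0.03 over all genes. Against control, the positive signs of Tlr7 and Myd88 did not hold with library totals.

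Tlr2 in CD45+ control libraries was at 295, 189, 147 and 146 CPM on day 3. In histotripsy-treated tumors it ran from 231 through a median of 346 to 578 CPM, and in abscopal tumors from 188 through 217 to 303. Of 6 treated libraries, 4 were above every control library and 4 above every abscopal one, and the ranges overlapped. Its log2 fold change was 1.17 (SE 0.28, adjusted p = 0.0144) against control and 0.87 (SE 0.23, adjusted p = 0.0297) against abscopal tumors in edgeR's quasi-likelihood test. The call against control was lost without control replicate 3 (adjusted p = 0.0693) or control replicate 4 (0.0644) and when only those groups were fitted (1.16, adjusted p = 0.0518). The call against abscopal tumors was lost in 8 of the 17 fits with a library left out, and moved most without treated replicate 3 (0.58, adjusted p = 0.122).

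Tlr13 was at 19.2, 27.6, 64.8 and 61.7 CPM in the control libraries, at 47.2 to 244 CPM with a median of 87.6 in treated tumors, and at 38.0 to 47.1 CPM with a median of 43.3 in abscopal tumors. All 6 treated libraries were above all 7 abscopal ones, and 4 of 6 were above every control. The difference was 1.68 (SE 0.42, adjusted p = 0.0185) against control and 1.63 (SE 0.35, adjusted p = 0.00728) against abscopal tumors on the log2 scale. Against control it was not called without control replicate 1 (adjusted p = 0.0544) or control replicate 2 (adjusted p = 0.0676), or with only those groups fitted (adjusted p = 0.0725). Against abscopal tumors it was called with each library left out in turn.

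Tlr4 was at 8.66, 15.4, 20.9 and 22.9 CPM in control libraries. Treated libraries ran from 16.9 through a median of 25.5 to 56.1 CPM, and abscopal ones from 9.70 through 13.2 to 19.2 CPM. Treated and abscopal tumors differed by 1.18 (SE 0.29, adjusted p = 0.0176), with 4 of 6 treated libraries above every abscopal one. Without treated replicate 3, the library at 56.1 CPM, that was 0.76 (adjusted p = 0.0722). Against control the difference was 0.996 (SE 0.34, adjusted p = 0.0752) in edgeR and 1.03 (adjusted p = 0.0454) in DESeq2, with adjusted p from 0.0118 to 0.179 over the alternatives other than single libraries left out.

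Cd14 varied most among the treated libraries. It was at 182, 146, 287 and 323 CPM in control tumors and at 167, 591, 889, 88.3, 271 and 777 CPM in the treated ones. The treated group thus held 3 libraries above every control and 1 below every control. Its differences of 1.29 (SE 0.51, adjusted p = 0.123) against control and 1.40 (SE 0.42, adjusted p = 0.0560) against abscopal tumors were not called, although their size was like that of Tlr2 and Tlr13.

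The remaining members did not pass the test on day 3. Against control, Tlr3 was at -0.42 (SE 0.37), Ly96 at -0.26 (SE 0.41), Tlr7 at 0.22 (SE 0.23), Myd88 at 0.22 (SE 0.20) and Ticam1 at 0.27 (SE 0.20) on the log2 scale. With library totals Tlr7 was at -0.00 and Myd88 at -0.01, so no direction is given for them. Ly96 and Tlr4, which form 1 receptor complex, thus had differences of unlike sign against control, -0.26 and 0.996, and their difference was not tested. Treated libraries had 4.21 to 24.7 CPM of Ly96 and 4 of 6 were below every control.

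**Figure D2:**
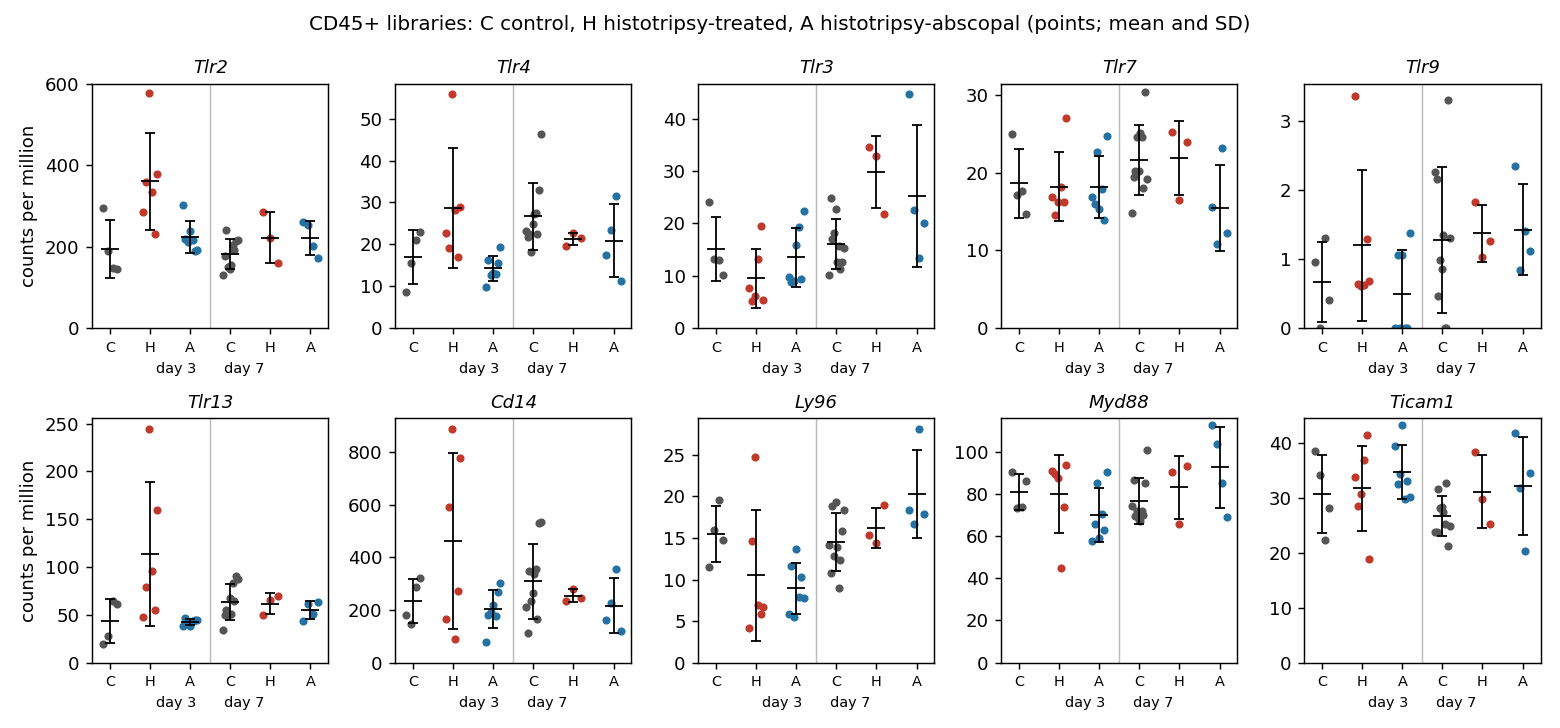
CPM of each member in every CD45+ library by treatment and day, with the group mean and SD. On day 3 Tlr13 in treated tumors (47.2 to 244 CPM) lies above all abscopal libraries (38.0 to 47.1 CPM), and treated replicate 3 is the highest library for Tlr2, Tlr4, Tlr13 and Cd14.

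Neutrophil markers moved with these results. Of 7 such genes, 6 were tested and 5 were higher in treated than in control CD45+ cells on day 3, none of them lower. Their summed level was 354, 799, 2289 and 2704 CPM in the control libraries and 2069, 7891, 26799, 4224, 1322 and 4462 CPM in treated replicates 1 to 6. The highest library of that list was also the highest for Tlr2 (578 CPM), Tlr13 (244 CPM), Tlr4 (56.1 CPM) and Cd14 (889 CPM). Treated replicates 1 and 5, with neutrophil sums within the control range, had 285 and 231 CPM of Tlr2 and 47.2 and 55.1 CPM of Tlr13, all within the control range too. Replicate 4 had a neutrophil sum above every control and the lowest Cd14 level of its group (88.3 CPM). Of 10 monocyte and macrophage markers 0 were called against control, with sums of 3452 to 3705 CPM in control and 1890 to 4109 CPM in treated libraries, and against abscopal tumors 1, Mrc1, was higher. Of 4 plasmacytoid dendritic cell markers 1, Siglech, was lower than in control tumors, with sums of 864 to 890 CPM in control and 427 to 852 CPM in treated libraries. Against control, 0 of the 5 dendritic cell, 5 NK cell and 3 B cell markers tested were called. Of 6 T cell markers 3 were lower, with sums of 715 to 1231 CPM in control and 143 to 645 CPM in treated libraries. No list had a marker at 0 in these groups. The part of these cell types in the differences was not tested.

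The 3 libraries that stood apart were left out together, an alternative chosen after seeing the data. Tlr2 (0.89, adjusted p = 0.0171) and Tlr13 (1.17, adjusted p = 0.0417) were still called against control. Against abscopal tumors 0 members were then called, with Tlr2 at 0.72 (adjusted p = 0.0604), Tlr4 at 0.66 (adjusted p = 0.164) and Tlr13 at 1.08 (adjusted p = 0.0707).

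**Figure D3:**
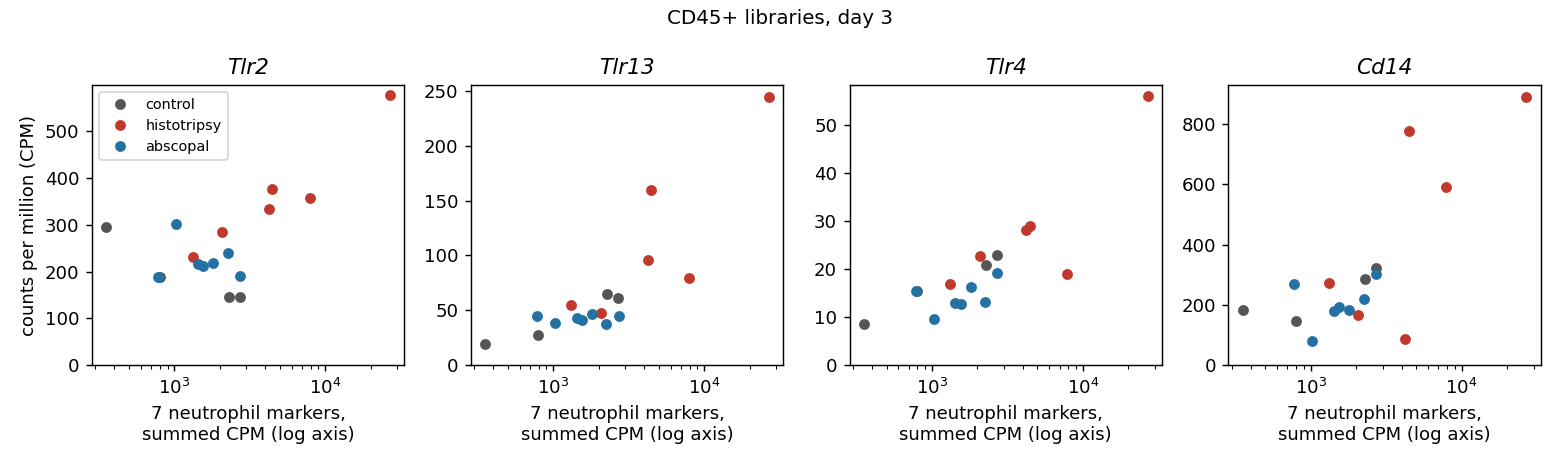
Tlr2, Tlr13, Tlr4 and Cd14 in CPM against the summed CPM of 7 neutrophil markers (log axis) in the 17 CD45+ libraries of day 3, 1 point per library. Treated replicate 3, at 26799 CPM of neutrophil markers, is the highest point of each panel.

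In histotripsy-abscopal tumors, CD45+ cells showed no called member against control on day 3, where 0 of 10264 genes were called by edgeR, 796 had an unadjusted p under 0.05 and DESeq2 called 12. Of the members, 0 had an unadjusted p under 0.05. Tlr2 was at 0.30 (SE 0.27), Tlr13 at 0.05 (SE 0.41), Tlr4 at -0.18 (SE 0.34) and Cd14 at -0.11 (SE 0.47). Ly96 had the largest difference, -0.66 (SE 0.39, adjusted p = 0.690), with 5 of 7 abscopal libraries below every control. This comparison and that of treated with control tumors share the 4 control libraries.

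On day 7, 0 of 9 members were called in any comparison of CD45+ cells, where 0% of 10817 genes were called by edgeR. DESeq2 also called 0 genes in each. An unadjusted p under 0.05 was found for 344 genes in treated against control, 800 in abscopal against control and 290 in treated against abscopal tumors. Tlr2 was at 284, 221 and 159 CPM in treated and 131 to 240 CPM (median 184) in control libraries, a difference of 0.28 (SE 0.19, adjusted p = 0.9999). Tlr13 was at 49.6, 65.8 and 69.8 CPM in treated tumors, inside the control range of 34.0 to 90.7 CPM. Cd14 was at 235, 282 and 244 CPM against 114 to 536 CPM in control tumors. Tlr4, at 19.7, 22.6 and 21.4 CPM, lay within the control range of 18.2 to 46.3 CPM.

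Tlr3 had the largest day 7 difference of the members. It was at 34.7, 32.9 and 21.9 CPM in treated libraries, at 44.7, 22.5, 13.4 and 20.1 CPM in abscopal ones, and from 10.2 through a median of 15.5 to 24.9 CPM in controls. Of the treated libraries, 2 of 3 were above every control. The log2 fold change was 0.88 (SE 0.27, unadjusted p = 0.00312, adjusted p = 0.9999) for treated and 0.73 (SE 0.25, unadjusted p = 0.00890, adjusted p = 0.580) for abscopal tumors, so it failed the correction. Without the filter on low counts it was called for treated tumors (adjusted p = 0.0414). These comparisons share the 10 control libraries. Ly96 (0.48, SE 0.20) and Myd88 (0.31, SE 0.14) in abscopal tumors also had an unadjusted p under 0.05 and failed it.

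The effect of ablation in CD45+ cells was then compared between the days as an interaction, day 7 minus day 3, in a fit of all 70 libraries. It was lower on day 7 for 2 of 9 members, Tlr4 (-1.34, SE 0.40, adjusted p = 0.0329) and Tlr13 (-1.71, SE 0.44, adjusted p = 0.0117), beside 3.83% of all genes (88 higher and 513 lower). With library totals the split of all genes was 284 and 315, and Tlr4 was at -1.07 (adjusted p = 0.0802). Tlr2 (-0.89, SE 0.34, adjusted p = 0.124), Cd14 (-1.59, SE 0.56, adjusted p = 0.0950) and Tlr3 (1.28, SE 0.43, adjusted p = 0.0712) were not called. Both calls were lost when the 3 libraries that stood apart were left out (Tlr4 -0.91, adjusted p = 0.153; Tlr13 -1.20, adjusted p = 0.0666). Without day 7 histotripsy replicate 1, Tlr4 was at -1.28 (adjusted p = 0.118) and Tlr13 at -1.56 (adjusted p = 0.0736). Tlr4 was also not called without control replicate 1 or 2 of day 3 (adjusted p = 0.0801 and 0.0674) or day 7 histotripsy replicate 3 (adjusted p = 0.0833).

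In CD45- cells 5 members had enough counts to be tested (Tlr3, Tlr4, Ly96, Myd88 and Ticam1), and 0 were called in any of the 6 treatment comparisons. The shares of all genes called were 0.0916% for treated against control and 0.147% for treated against abscopal tumors on day 3, 0.291% for abscopal against control tumors on day 7, and 0% in the other comparisons. In those, 567 genes (abscopal against control on day 3), 668 (treated against control on day 7) and 741 (treated against abscopal on day 7) had an unadjusted p under 0.05, and DESeq2 called 13, 0 and 0. Ticam1 on day 3 was the 1 member with an unadjusted p under 0.05, and DESeq2 called 0 members. It was at 21.6, 16.9, 19.0 and 13.7 CPM in day 3 control libraries, at 10.9, 10.3, 11.6, 10.2, 16.3, 16.1 and 16.2 CPM in treated ones, and at 15.3 to 23.1 CPM in abscopal ones. The difference was -0.44 (SE 0.17, unadjusted p = 0.0195, adjusted p = 0.362) against control and -0.47 (SE 0.15, unadjusted p = 0.00448, adjusted p = 0.150) against abscopal tumors. Of the other tested members, differences from control on day 3 lay between -0.14 and 0.41, each with an SE of 0.20 to 0.34. Tlr2, Tlr7, Tlr13 and Cd14 passed the filter of the fit of all libraries only through CD45+ cells. Their counts in CD45- cells are too few to decide whether an effect differed there. For the 5 members named above, a difference in effect between the fractions was called for 0 on day 3 (beside 3.06% of genes). It was called for 0 on day 7 (beside 0%, with 559 genes at an unadjusted p under 0.05 and 3 called by DESeq2). Between the days in CD45- cells it was called for 0 (beside 0.00747%). On day 3 that difference between the fractions was 1.12 (SE 0.39, adjusted p = 0.101) for Tlr4 and 0.72 (SE 0.26, adjusted p = 0.108) for Ticam1.

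**Figure D4:**
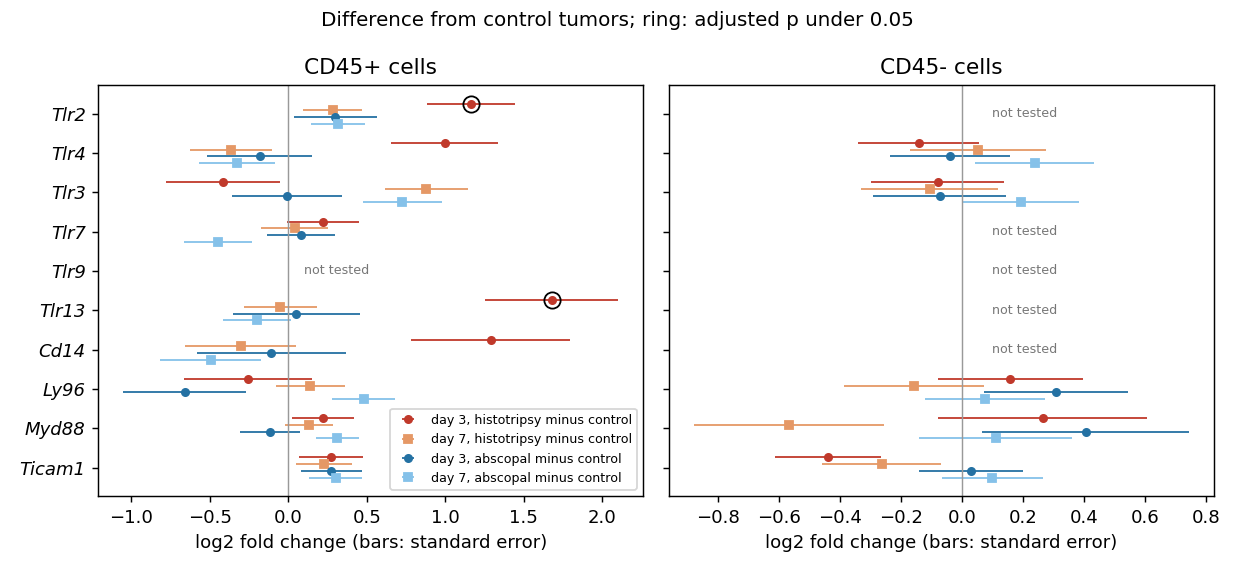
Log2 fold change against control tumors with its SE in CD45+ (left) and CD45- (right) cells, for treated and abscopal tumors on both days; rings mark an adjusted p under 0.05. Rings stand at Tlr2 (1.17) and Tlr13 (1.68) in treated tumors on day 3 and nowhere else.

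The wider pathway was read from 66 further genes in 8 lists. These lists, like the members, were chosen with earlier results of these data known, so a share above that of all genes is no independent support. In CD45+ cells on day 3, 15 of 58 tested were higher in treated than in control tumors and 0 lower, beside 6.22% of all genes higher, and their median difference was 0.28 on the log2 scale, beside -0.01 over all genes. Against abscopal tumors 16 were higher, beside 4.87% of all genes. Without the 3 libraries that stood apart these counts were 12 and 8. They were 9 without control replicate 3 and 11 without treated replicate 3, the lowest with a library left out. By role, 6 of 14 target genes, 3 of 6 inhibitors, 2 of 5 endogenous ligands, 2 of 15 kinases and ubiquitin ligases, 1 of 5 other receptors, 1 of 3 other adaptors, 0 of 6 transcription factors and 0 of 4 genes of folding, trafficking and ligand transfer were higher than in control tumors. Acod1, which makes itaconate in stimulated macrophages, was at 2327 CPM in treated and 518 CPM in control tumors (2.48, SE 0.43, adjusted p = 0.00209). The kinase Ikbke (1.17, SE 0.21, adjusted p = 0.00250), the chemokine Ccl3 (1.62, SE 0.31, adjusted p = 0.00398) and the anti-inflammatory cytokine Il10 (1.27, SE 0.28, adjusted p = 0.00905) had the next smallest p-values. Against abscopal tumors, these were Ccl3 (1.68, SE 0.26), Il1b (1.30, SE 0.21), the NF-kB inhibitor Nfkbia (1.21, SE 0.22) and Acod1 (1.80, SE 0.34). Without the 3 libraries, Acod1, Ikbke, Ccl3 and Il10 were still called against control (adjusted p from 0.00214 to 0.00500), and Ccl3, Il1b, Nfkbia and Acod1 against abscopal tumors (adjusted p from 0.00653 to 0.0272). The endogenous ligands called against control, S100a8 and S100a9, are also in the neutrophil marker list, and were not called without those libraries (adjusted p = 0.0757 and 0.0867).

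Tlr6, the partner of Tlr2, was at 1.92 to 15.1 CPM in control and 11.7 to 62.8 CPM in treated CD45+ libraries on day 3 (1.87, SE 0.43, adjusted p = 0.0104, and 1.59, adjusted p = 0.0245, without the 3 libraries that stood apart). Tlr1, its other partner, was at 16.7 to 22.9 and 10.1 to 18.1 CPM (-0.17, SE 0.22, adjusted p = 0.680). The partners of Tlr2 thus differed in whether they passed the test, and the difference between them was not tested. Tlr12 was at 5.63 to 13.5 CPM in the CD45+ libraries of day 3. Tlr5, Tlr8 and Tlr11 had means of 0.979 to 3.15 CPM in those groups. In CD45- cells Tlr1, Tlr5, Tlr6, Tlr8 and Tlr11 had at most 4 counts in a library, and Tlr12 at most 8.

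On day 7, 0 of the pathway genes were called in CD45+ cells. Between the days, 8 of 63 had a lower effect of ablation on day 7 and 0 a higher one, beside 3.83% of all genes lower, led by Acod1 (-2.73, SE 0.52, adjusted p = 0.000490), S100a8 (-3.19, SE 0.73), Ikbke (-1.27, SE 0.30) and Ccl3 (-1.79, SE 0.43). Without the 3 libraries that stood apart 6 were called, these 4 among them, and 5 without day 7 histotripsy replicate 1. In CD45- cells 3 of 37 tested were higher in abscopal than in control tumors on day 7, the matrix proteins Bgn, Vcan and Tnc, beside 0.264% of all genes higher. DESeq2 called 0 of the 3, and they were also not called without abscopal replicate 1 (adjusted p = 0.709 for each), abscopal replicate 2 or control replicates 3, 4, 8 or 11. Vcan was also not called without control replicates 5, 6, 7, 9 or 10, nor Bgn without control replicates 6, 9 or 10. Bgn was at 4.62 to 126 CPM in the 4 abscopal libraries and 2.38 to 21.0 CPM in the controls, and fibroblast marker sums were 71.9 to 2475 CPM and 15.9 to 680 CPM in the same groups. Their part in this result was not tested. Between the fractions, 53 of 63 pathway genes were higher in CD45+ cells and 5 lower on day 3, beside 44.0% and 40.0% of all genes, and 54 and 5 on day 7, beside 43.2% and 38.5%. In CD45- cells alone, 39 pathway genes passed the filter on day 3 and 37 on day 7. Part of the 63 thus entered only through CD45+ cells, where they are high, and their outcome was largely set by the filter. The smallest p-values belonged to Il1b (mean 4100 against 0.284 CPM on day 3), Ccl4 (1402 against 0.260 CPM), Ccl5 (873 against 7.13 CPM) and the adaptor Pik3ap1 (228 against 0.197 CPM).

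The genes whose levels over the 34 CD45+ libraries were most like those of each member were sought among 8234 others with a mean of at least 10 CPM, by Pearson's r of log2(CPM + 1). The libraries share treatment groups and composition, so these are descriptions. Cd14 was most like Card19 (r = 0.91) and the chemokine Cxcl1 (r = 0.91). Tlr13 was most like Msrb1 (r = 0.89) and Fpr1, the formyl peptide receptor (r = 0.86). Tlr4 was most like Rab7 (r = 0.86) and Gpat3 (r = 0.85), and Tlr2 most like Arf2 (r = 0.84) and Ehd1 (r = 0.83). Tlr3 stood with Ppfia4 (r = 0.80) and Pgap2 (r = 0.79), Ly96 with Mpeg1 (r = 0.76) and Slc31a1 (r = 0.75), Myd88 with Ctdsp2 (r = 0.76) and Zfp36 (r = 0.74), and Ticam1 with Bach1 (r = 0.73) and Cldnd1 (r = 0.72). Tlr7 had the weakest best match, Bmt2 (r = 0.66). Among the members themselves, Tlr4 and Tlr13 were the most alike (r = 0.76), while Tlr4 and Ly96 reached r = 0.37.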

How the data were processed

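The members and the gene lists were chosen with earlier results of these data known. Per the study's methods, QuantSeq libraries were sequenced as single ends, reads were trimmed with Trim Galore 0.5.0, aligned with STAR 2.6.0 and collapsed by unique molecular identifier, and reads per gene of GRCm38 were counted with featureCounts; the strand setting is not given in the sources used here. The authors deposited raw counts, 1 table per fraction and day, without normalization. A nameless line in each CD45+ table, which holds the sum of its columns (100%), was not used. Of the columns, 0 had no sample. CPM is a count divided by its library's total and scaled to a common total.

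Counts were tested with edgeR 4.0.16 in R 4.3.3 (TMM scaling, filterByExpr with minimum count 10 and minimum total 15, quasi-likelihood test, Benjamini-Hochberg threshold 0.05) in a fit per table, and in a fit of all 70 libraries for fractions and interactions. Alternatives were DESeq2 1.42.0, library totals, no filter, only the groups compared, single treatment groups, a replicate block and each library left out. The block rests on the replicate number, which may not match tumors between the fractions. In the fit of all 70 libraries, only the 22 libraries of groups of at most 4 were left out in turn. No pair of libraries within a group agreed within sampling noise (smallest chi-square per degree of freedom 1.99). Named genes were the members, up to 4 called pathway genes a comparison by smallest p, the remaining Toll-like receptors as levels, and the 2 genes most like each member. On simulated counts, 59% of genes changed 2-fold and 94% of those changed 4-fold were recovered for treated against control CD45+ cells on day 3 (10128 genes), and 63% and 91% on day 7 (10688 genes). For the difference of that effect between the days, these were 29% and 67% (12637 genes). For members with at most 3 counts in any library of a fraction, no fitted fold change is given; Poisson and exact binomial intervals are at 95%. Coordinates are from GENCODE on GRCm38.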

Additional observations from a re-analysis of the deposited data

Results flagged for a closer look

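In groups of 4 to 10 libraries, the gap between the highest or lowest library and its neighbor was compared with Dixon's 95% critical value, which chance passes in about 1 in 20 groups. Over 65 combinations of member and group, 5 passed. Tlr4 in CD45+ histotripsy-treated replicate 3 on day 3 was at 56.1 CPM, with the others at 16.9 to 29.0 CPM. The same library had the highest neutrophil marker sum, 26799 CPM. Tlr4 in CD45+ control replicate 10 on day 7 was at 46.3 CPM (others 18.2 to 33.1 CPM). Tlr7 in CD45+ histotripsy-treated replicate 6 on day 3 was at 27.0 CPM (others 14.6 to 18.2 CPM). Ly96 in CD45+ abscopal replicate 3 on day 7 was at 28.1 CPM (others 16.7 to 18.3 CPM), and Tlr3 in CD45- abscopal replicate 4 on day 7 was at 28.6 CPM (others 21.0 to 21.8 CPM).

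The effect of histotripsy on CD45+ cells differed between the days for Tlr4 (-1.34 on the log2 scale, day 7 minus day 3, adjusted p = 0.0329) and Tlr13 (-1.71, adjusted p = 0.0117) in edgeR's test of the interaction. Both differences lost their call without the 3 day 3 libraries that stood apart, as given above.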

How the results depend on the processing

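The labels pair no libraries, and correlations between same-numbered libraries were not all over 0.1 in any treatment comparison. Between the fractions they were all over 0.1 in 1 of the 6 groups, day 7 abscopal (0.104 to 0.275, each of 4 libraries closest to its own number), and had minima of -0.0315 to 0.0628 in the others. Numbers need not match tumors, and fraction tests treat libraries as independent. With a replicate block, 0 members differed between the days in CD45+ cells (Tlr4 -1.16, adjusted p = 0.289; Tlr13 -1.10, adjusted p = 0.377), 1 member, Ticam1, differed in its day 3 effect between the fractions (0.97, adjusted p = 0.0448), the day 3 fraction difference of Tlr3 was called (-0.38, adjusted p = 0.0270), and Tlr2 was not called against abscopal tumors (0.78, adjusted p = 0.0651). Of pathway genes the block left 0 of 8 called between the days and 0 of 3 in CD45- cells on day 7. In CD45+ cells, 4 members were called for treated against control tumors on day 3 with no filter and 0 with only the groups compared. With no filter, 1 was called for these groups on day 7 and 4 differed between the days. Without the 3 libraries that stood apart, 0 were called against abscopal tumors and 0 between the days. The day 7 fraction difference of Tlr3 turned to -0.059 in control tumors alone. With a library left out, 1 to 3 members were called against control and 1 to 4 against abscopal tumors. With 22 of 70 left out in turn, 0 to 2 were called between the days. Between fractions these were 7 to 8 on day 3 and 8 to 9 on day 7, and other comparisons had 0. Of called member differences, values under other alternatives kept direction and call in 146 cases and direction only in 21, and turned in the 1 named. With a library left out these were 461, 20 and 0. Uncalled differences, among them signs that library totals turned, are not counted here. The cause of these changes was not tested. Over all genes, in CD45+ cells on day 3, the 801 called for treated against control became 1244 with no filter, 451 with only those groups, 1256 with the block, and 525, 334 and 361 without control replicates 2, 3 and 4. The 558 against abscopal tumors became 1022 with no filter, 365 with only those groups, 221 without the 3 libraries, and 264 and 862 without treated replicates 3 and 5. The 0 for abscopal against control became 153 with no filter, 12 with DESeq2 and 1 with the block, and on day 7 the 0 in each comparison became 32 (treated against control), 102 (abscopal against control) and 17 (treated against abscopal) with no filter. The 601 that differed between the days became 25 with the block, and 288 and 341 without day 7 treated replicates 1 and 3. The 410 that differed between the fractions on day 3 became 684 with library totals, and 227 and 208 without CD45+ control replicates 3 and 4 and 268 without CD45- control replicate 1. In CD45- cells on day 3, the 10 for treated against control became 312 with no filter, 49 with DESeq2, 26 with the block and 2 with only those groups, the 16 against abscopal tumors became 451, 138 and 117 under the first 3 of these and 25 with library totals, and the 0 for abscopal against control became 15, 13 and 1. On day 7 the 32 for abscopal against control became 398 with no filter, 62 with only those groups, 11 with DESeq2 and 0 with the block, and no filter gave 165 for treated against control and 8 for treated against abscopal tumors. With a library left out, the counts in CD45- cells ran from 1 (without control replicate 1 or 2) to 17 (treated replicate 5) for treated against control and 0 (abscopal replicate 1) to 99 (treated replicate 5) against abscopal tumors on day 3, and from 1 (abscopal replicate 1 or 2) to 136 (treated replicate 3) for abscopal against control and 0 to 26 (treated replicate 2) for treated against control on day 7. The 1 that differed between the days in CD45- cells became 18 with no filter, 11 with DESeq2, 3 with library totals, 2 with the block and 0 to 7 with a library left out, and the 0 that differed between the fractions on day 7 became 19 with no filter, 3 with DESeq2 and at most 4. Depth left Tlr2 (at most 8 counts in a CD45- library) and Tlr7, Tlr9, Tlr13 and Cd14 (at most 3) without a treatment test in the fits of CD45- cells alone.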
